A study of Homo sapiens with 33 samples.

Results

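The CDC42 effector genes CDC42EP1 to CDC42EP5 and the gene of the GTPase they bind, CDC42, were followed as 6 of 62446 gene rows in 33 RNA sequencing libraries of human acute lymphoblastic leukaemia cell lines. The 6 genes were taken by symbol, and each matched 1 Ensembl identifier: CDC42EP1 (ENSG00000128283.7_1), CDC42EP2 (ENSG00000149798.5_1), CDC42EP3 (ENSG00000163171.8_1), CDC42EP4 (ENSG00000179604.10_1), CDC42EP5 (ENSG00000167617.3_1) and CDC42 (ENSG00000070831.17_1). The family was chosen because CDC42EP3 responded to prednisolone much less in a TLE1 knockout than in its parental line. The difference of the prednisolone responses is therefore given below as a description with no test, and CDC42EP3 gets no p-value in any comparison that shares libraries with it.

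CDC42 is a small GTPase that is active when bound to GTP and that organises actin, polarity and membrane traffic. Its CDC42EP effectors, also called Borg proteins, bind the active form through a short CRIB motif and also bind septins, the filament-forming GTPases of the cell cortex. Guanine nucleotide exchange factors switch CDC42 on, and GTPase-activating proteins and dissociation inhibitors switch it off or hold it in the cytosol. Glucocorticoids act through a receptor that binds DNA, and they are a mainstay of the treatment of this leukaemia. TLE1 is a co-repressor that works with TCF/LEF factors, the nuclear end of canonical Wnt signalling.

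The series concerns antagonism between glucocorticoid and Wnt signalling in leukaemia cells. It used Nalm6, a line of B-cell precursor leukaemia, a Nalm6 derivative in which TLE1 was knocked out, and CEM, a T-cell leukaemia line. Each of the 11 groups had 3 libraries, which the series text describes as independent experiments, so a p-value measures the spread between those libraries. The parental line was untreated (Nalm6_Ctrl) or treated for 24 hours with 0.5 µM CHIR-99021 (Nalm6_CHIR), a GSK3 inhibitor used as a Wnt agonist, or with 5 µM of the glucocorticoid prednisolone (Nalm6_Pred). Another untreated group (Nalm6_Dex_Ctrl) was titled as the control of Nalm6 given 100 nM of the stronger glucocorticoid dexamethasone for 24 hours (Nalm6_Dex). The knockout was untreated (TLE1_KO_Ctrl), or treated for 24 hours with 5 µM prednisolone (TLE1_KO_Pred) or 100 nM dexamethasone (TLE1_KO_Dex); no untreated knockout group is titled for the dexamethasone experiment. CEM was untreated (CEM_Ctrl), or treated for 24 hours with 2 µM CHIR-99021 (CEM_CHIR) or 10 µM prednisolone (CEM_Pred). Nalm6 and the knockout grew in charcoal-stripped serum, which is depleted of steroids. Whether the knockout is a single clone is not given in the sources used here. The treatment protocol in the labels gives the knockout CHIR-99021 and the parental line prednisolone, whereas the titles and the treatment labels of the samples list the groups above, which were followed.

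Libraries held 25292579 to 61930057 gene-assigned counts. TLE1 transcripts were still present in the knockout. They stood at 25.4, 24.0 and 24.0 counts per 1000000 gene counts (CPM) in untreated knockout libraries against 30.2, 34.0 and 31.8 in Nalm6_Ctrl, a log2 fold change of -0.36 ± 0.06 (SE; adjusted p = 0.002 by edgeR's quasi-likelihood test with Benjamini-Hochberg adjustment over all tested genes). Nalm6_Dex_Ctrl was at 27.0 ± 0.968 CPM (SD, n = 3), Nalm6_CHIR at 28.2 ± 0.911 and CEM groups at 85.3 to 91.6. TLE1 reached 113 ± 3.03 CPM in Nalm6_Pred and 131 ± 2.71 in Nalm6_Dex, against 62.5 ± 7.38 in TLE1_KO_Pred and 57.3 ± 1.84 in TLE1_KO_Dex. Counts per gene cannot show whether the knockout's RNA is edited. All 9 B-lineage markers were above 1 CPM in every Nalm6 and knockout group, and all 8 T-lineage markers were above 1 CPM in every CEM group, while 1 of 8 (LCK) was in any Nalm6 or knockout group. Summed myeloid and fibroblast markers stayed at or below 15.3 CPM, with COL3A1, DCN and LUM at 3 counts or fewer in every library. The libraries Nalm6_CHIR replicate 3 and those of TLE1_KO_Ctrl differed most from their own replicates.

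RefSeq's table of promoter windows (GRCh38.p14) held entries for CDC42EP1 to CDC42EP4 and CDC42. CDC42EP3 has 3 annotated starts there. The 250 bases before the first one lie on the minus strand at chr2:37672950-37673199. They are shown because CDC42EP3 carries the largest response of the family, and because the study sets a receptor pathway against a TCF/LEF pathway. Capitals mark the TCF/LEF core letters CTTTGA.
CDC42EP3, first start: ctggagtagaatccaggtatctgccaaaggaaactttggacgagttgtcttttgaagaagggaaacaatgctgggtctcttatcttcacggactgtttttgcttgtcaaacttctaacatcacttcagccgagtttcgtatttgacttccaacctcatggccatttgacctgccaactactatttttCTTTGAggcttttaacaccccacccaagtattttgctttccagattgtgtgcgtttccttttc
Both strands were searched for 4 motifs in the 250 upstream bases of all 7 member windows. CTTTGA was found only in the window above, 63 bases before the start. It occurs in 11.2% of all 35116 RefSeq windows of that length. AGAACA, an arm of the palindrome that the glucocorticoid receptor prefers, was in none of the 7 windows and is in 12.4% of all windows. The whole palindrome, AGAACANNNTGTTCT, was in none of them and is in 0.003% of all windows. TGACG, the core of cyclic AMP response elements, was in the CDC42 window on both strands of a single overlapping stretch, TGACGTCA. It is in 21.2% of all windows. The printed CDC42EP3 window has a GC content of 42.4%, against 84.0% for CDC42EP1, 78.0% for CDC42EP2 and a median of 58.0% over all windows. A letter match is no binding site, and a missing match says nothing of sites elsewhere.

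Relative to transcript length, CDC42 was far more abundant than any of its effectors. Per kilobase of annotated exon, CDC42 lay between 75.1 and 96.5 CPM over the 11 group means. The highest group means per kilobase were 3.87 CPM for CDC42EP4, 2.26 for CDC42EP3, 1.53 for CDC42EP5, 0.357 for CDC42EP2 and 0.307 for CDC42EP1. CDC42 was also the flattest of the genes, with a highest group mean 1.29 times its lowest. CDC42EP3 group means spanned 57.5-fold and those of CDC42EP4 70.8-fold. CDC42EP1 and CDC42EP2 stayed under 1 CPM in every group mean, so their values rest on at most 48 counts a library.

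**Figure D1:**
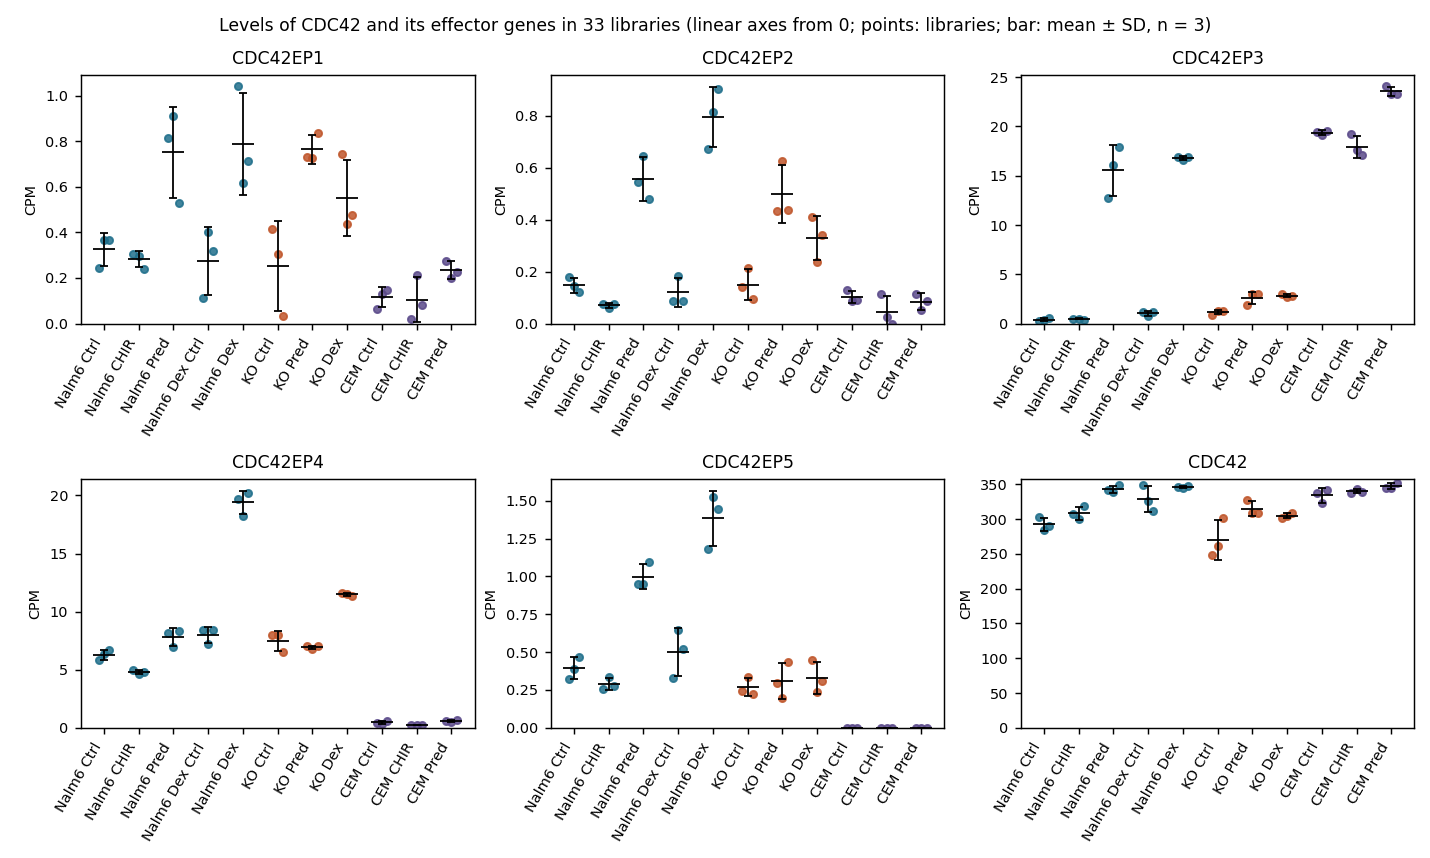
Levels of the 6 genes in CPM (vertical axes, linear from 0) in the 11 groups (horizontal axis); points are libraries and black bars the mean ± SD of 3. CDC42EP3 is near 0 in untreated Nalm6, above 12 CPM in every glucocorticoid-treated Nalm6 library and above 17 CPM in every CEM library, while CDC42EP5 is at 0 in CEM.

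CDC42EP3, known as Borg2, binds active CDC42 and septins. In Nalm6_Ctrl it stood at 0.307, 0.347 and 0.575 CPM, which are 19, 17 and 33 counts. Prednisolone-treated Nalm6 held 12.7, 16.1 and 17.9 CPM, or 375, 846 and 1048 counts. The groups did not overlap, and the log2 fold change was 5.23 ± 0.17 (SE). In the knockout, CDC42EP3 was at 0.903, 1.22 and 1.28 CPM untreated and at 1.92, 3.0 and 2.98 CPM with prednisolone, which is 1.15 ± 0.22 on the log2 scale. These groups did not overlap either, but every treated knockout library lay below every treated parental library. The difference of the 2 responses, knockout minus Nalm6, was -4.05 ± 0.35 in log2 units. These are the values the family was chosen on; 3.48% of 17952 genes tested were called in that comparison, and nothing is read from it here.

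Part of that difference lies in the untreated groups. The 3 untreated knockout libraries were above the 3 of Nalm6_Ctrl, with a log2 difference of 1.50 ± 0.27. Untreated Nalm6 of the dexamethasone experiment stood at 1.14, 0.769 and 1.18 CPM, overlapping the untreated knockout and lying 1.40 ± 0.27 above Nalm6_Ctrl in log2 units. With Nalm6_Dex_Ctrl as the control, the untreated difference between knockout and Nalm6 became 0.10. The prednisolone response of Nalm6 then became 3.79 and the difference between the lines -2.63. The share of reads outside genes was 26.3% to 32.7% in the Nalm6_Pred libraries, 26.4% to 28.3% in Nalm6_Ctrl and 19.2% to 19.7% in Nalm6_Dex_Ctrl, and the counted strand held 13.5 to 13.9, 13.8 to 13.9 and 14.5 to 14.7 times the counts of the other strand. On both measures Nalm6_Pred overlapped Nalm6_Ctrl and not Nalm6_Dex_Ctrl, and their part in the values was not tested. By sample number, however, Nalm6_Pred was deposited in a run with Nalm6_Dex_Ctrl and the CEM groups. Nalm6_Ctrl was in a separate run with TLE1_KO_Ctrl and TLE1_KO_Pred. The prednisolone response of Nalm6 thus spans both runs, and that of the knockout does not. The labels do not say what the runs stand for. Without Nalm6_Ctrl replicate 3, the response measured against Nalm6_Ctrl was 5.56.

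The dexamethasone libraries are not among those of the contrast the genes were chosen on, although earlier results of all libraries were known when the family was picked. CDC42EP3 rose from the 1.14, 0.769 and 1.18 CPM of their control to 16.9, 16.6 and 16.9 CPM, or 729, 674 and 713 counts. The log2 fold change was 3.96 ± 0.11 (adjusted p = 1.00e-12, edgeR), a 15.6-fold rise, and it ranged from 3.79 to 4.05 when each library was left out in turn. Knockout cells under dexamethasone held 2.97, 2.65 and 2.83 CPM, so the lines did not overlap. CDC42EP3 was 5.90-fold lower in the knockout than in Nalm6 under this drug, a log2 difference of -2.56 ± 0.08 (adjusted p = 2.92e-16, edgeR), and stayed between -2.59 and -2.51 without any single library. In bulk RNA a lower level in each cell and fewer cells that express the gene cannot be told apart. Set against the untreated difference between the lines, the dexamethasone difference was -4.07 ± 0.25; it rests on the untreated libraries of the choice and has no test. It was -2.67 with TLE1_KO_Ctrl and Nalm6_Dex_Ctrl as the untreated groups. No untreated knockout is titled for the dexamethasone experiment, so a difference between experiments stays in that value.

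In CEM, CDC42EP3 was high without any drug, at 19.4, 19.1 and 19.6 CPM. That was 4.17 ± 0.11 log2 units above Nalm6_Dex_Ctrl (adjusted p = 1.07e-12, edgeR) and 5.60 above Nalm6_Ctrl, although line and experiment cannot be told apart in this comparison. Prednisolone at 10 µM took it to 24.1, 23.3 and 23.3 CPM, above every untreated library, with a log2 fold change of 0.25 ± 0.05 (adjusted p = 2.59e-04, edgeR). The call was lost when all 33 libraries shared an estimate of spread, at 0.23 and adjusted p = 0.060. Under 2 µM CHIR-99021 the values were 19.2, 17.6 and 17.1 CPM, overlapping the untreated ones (log2 fold change -0.09 ± 0.06, adjusted p = 0.397, edgeR). In Nalm6, 0.5 µM CHIR-99021 gave 0.511, 0.474 and 0.408 CPM, inside the range of Nalm6_Ctrl, and a log2 difference of 0.17 ± 0.28. Doses differ between the lines, so the responses of CEM and Nalm6 stand side by side without a comparison.

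Ordered by group mean, CDC42EP3 was highest in CEM_Pred (23.6 ± 0.453 CPM, SD, n = 3). CEM_Ctrl (19.4 ± 0.233), CEM_CHIR (18.0 ± 1.11), Nalm6_Dex (16.8 ± 0.181) and Nalm6_Pred (15.6 ± 2.61) came next. CEM_Ctrl overlapped CEM_CHIR, and Nalm6_Dex overlapped Nalm6_Pred. A wide gap followed, down to TLE1_KO_Dex (2.82 ± 0.161) and TLE1_KO_Pred (2.63 ± 0.616), which overlapped each other. The untreated groups and Nalm6_CHIR closed the order, from TLE1_KO_Ctrl (1.14 ± 0.205) and Nalm6_Dex_Ctrl (1.03 ± 0.228), which overlapped, to Nalm6_CHIR (0.465 ± 0.0523) and Nalm6_Ctrl (0.409 ± 0.145), which overlapped too.

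A gene that passes the low-count filter only through the group where it is high had to differ. Such a gene of the family is left out of the counts of calls below, and its difference is given with no test. Under dexamethasone in Nalm6 this applies to CDC42EP2, where no untreated library reached the filter's level, and to CDC42EP1, where 2 of 3 did. Of the other 4 genes, CDC42EP3, CDC42EP4 and CDC42EP5 rose and CDC42 was not called. Over all 17217 genes tested in that comparison, 60.5% were called and 30.2% were called higher. Under prednisolone CDC42EP2 again passed only through the treated libraries, and CDC42EP1, CDC42EP4, CDC42EP5 and CDC42, the other 4 genes that can be tested, were called higher against Nalm6_Ctrl, beside 54.8% of 18658 genes called and 28.7% called higher. With Nalm6_Dex_Ctrl as the control, CDC42EP4 and CDC42 no longer passed. The remaining genes are taken in turn below.

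**Figure D2:**
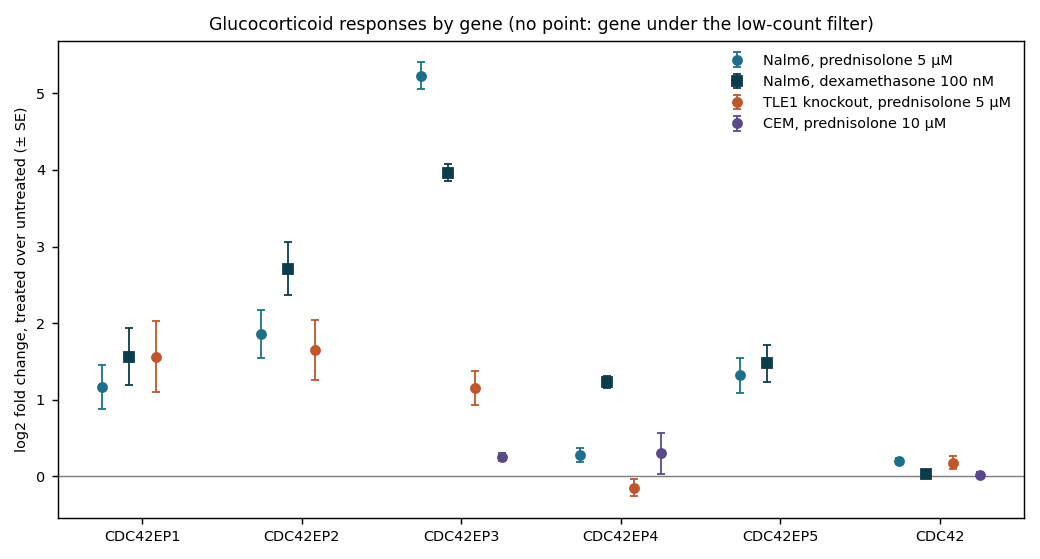
Log2 fold change of treated over untreated cells (vertical axis, ± SE, 3 libraries a group) for each gene (horizontal axis) in 4 glucocorticoid comparisons; a gene under the low-count filter has no point. CDC42EP3 has the highest points in Nalm6, at 5.23 and 3.96, and a point at 0.25 in CEM.

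CDC42EP4, or Borg4, had the highest level per kilobase among the effectors in untreated Nalm6. It stood at 5.86, 6.33 and 6.72 CPM in Nalm6_Ctrl and at 8.39, 7.2 and 8.41 CPM in Nalm6_Dex_Ctrl, which did not overlap (log2 difference 0.41 ± 0.09, adjusted p = 0.00179, edgeR). Dexamethasone took it to 19.7, 18.3 and 20.2 CPM, a log2 fold change of 1.24 ± 0.08 (adjusted p = 5.20e-09, edgeR). Every treated library was above every untreated Nalm6 library of either group. Prednisolone-treated Nalm6 held 8.18, 6.97 and 8.38 CPM, above Nalm6_Ctrl by 0.28 ± 0.09 (adjusted p = 0.0149, edgeR). The prednisolone call was lost in 3 of the 6 fits that left out a library, and against Nalm6_Dex_Ctrl the sign turned to -0.15 (adjusted p = 0.209).

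In the knockout CDC42EP4 was at 7.96, 7.95 and 6.49 CPM untreated and at 7.02, 6.76 and 7.03 CPM under prednisolone, and these groups overlapped (log2 fold change -0.14 ± 0.11, adjusted p = 0.324, edgeR). Under dexamethasone the knockout reached 11.6, 11.5 and 11.4 CPM, above its untreated libraries and below every dexamethasone library of Nalm6. The line difference under dexamethasone was -0.74 ± 0.06 (adjusted p = 1.81e-09, edgeR). Measured against the difference between the untreated lines it was -1.02 ± 0.11 (adjusted p = 5.26e-06, edgeR). It was -0.62 with TLE1_KO_Ctrl and Nalm6_Dex_Ctrl as the untreated groups (adjusted p = 0.00117, edgeR), where a difference between experiments is not removed.

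CDC42EP4 was also the gene of the family called under CHIR-99021 in Nalm6. The treated libraries, at 5.01, 4.62 and 4.77 CPM, lay below all 3 of Nalm6_Ctrl, a log2 fold change of -0.39 ± 0.08 (adjusted p = 0.0166, edgeR). The value stayed between -0.44 and -0.34 without any single library, Nalm6_CHIR replicate 3 included. The call was lost without Nalm6_Ctrl replicate 2 (adjusted p = 0.0761) and without Nalm6_Ctrl replicate 3 (adjusted p = 0.101). It was 1 of the 4 genes tested there, beside 7.88% of all 18082 genes called. CDC42EP2, under the low-count filter in this comparison, had 3, 3 and 4 counts treated and 11, 7 and 7 untreated. In CEM the level of CDC42EP4 was 0.433, 0.373 and 0.591 CPM, 18.0-fold below Nalm6_Dex_Ctrl (adjusted p = 3.08e-11, edgeR). CHIR-99021 in CEM gave 0.285, 0.259 and 0.278 CPM, below every untreated library, with a log2 fold change of -0.71 ± 0.29 that missed the threshold (adjusted p = 0.145, edgeR).

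CDC42EP5, or Borg3, has the shortest annotated exon length of the family, 903 bases. It rose in Nalm6 from 0.323, 0.388 and 0.47 CPM to 0.95, 0.949 and 1.09 CPM under prednisolone, or 28, 50 and 64 counts, with a log2 fold change of 1.32 ± 0.23 (adjusted p = 1.01e-04, edgeR). Dexamethasone took it from 0.33, 0.646 and 0.519 CPM to 1.18, 1.53 and 1.45 CPM (log2 fold change 1.48 ± 0.24, adjusted p = 1.01e-04, edgeR). Neither treated group overlapped its control. The knockout held 0.243, 0.336 and 0.225 CPM untreated, 0.298, 0.198 and 0.435 under prednisolone and 0.445, 0.237 and 0.307 under dexamethasone. All 3 knockout groups overlapped, at 6 to 13 counts a library, and the prednisolone response there fell under the low-count filter.

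Under dexamethasone CDC42EP5 was 4.11-fold lower in the knockout than in Nalm6, a log2 difference of -2.04 ± 0.27, and the lines did not overlap. It has no test, since no more than 2 of 3 knockout libraries reached the filter's level. Against the untreated difference it was -1.54 ± 0.43. That value has no test either, since 2 of 3 treated and 1 of 3 untreated knockout libraries reached the level. It was -1.32 without TLE1_KO_Ctrl replicate 2 and -1.19 with TLE1_KO_Ctrl and Nalm6_Dex_Ctrl as the untreated groups. None of the 9 CEM libraries had a count of CDC42EP5. With a floor of 3 counts a library, its mean was at least 6.81-fold higher in Nalm6_Dex_Ctrl and at least 5.38-fold higher in Nalm6_Ctrl than CEM allows.

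CDC42EP2, or Borg1, was read at 11, 7 and 7 counts in Nalm6_Ctrl and at 16, 34 and 28 under prednisolone. In CPM that was 0.178, 0.143 and 0.122 against 0.543, 0.645 and 0.478, a log2 fold change of 1.86 ± 0.31. Dexamethasone libraries held 0.671, 0.812 and 0.902 CPM against 0.0881, 0.185 and 0.0864 in their control (log2 fold change 2.71 ± 0.35). The knockout held 0.139, 0.214 and 0.0963 CPM untreated and 0.433, 0.627 and 0.435 CPM with prednisolone (log2 fold change 1.65 ± 0.39). None of these 3 pairs of groups overlapped, and no untreated library reached the filter's level. Under dexamethasone the knockout, at 0.408, 0.237 and 0.341 CPM, lay below every dexamethasone library of Nalm6, with a log2 difference of -1.24 ± 0.30. The dexamethasone difference against the untreated one was -1.30 ± 0.53. These values of CDC42EP2 have no test. CEM libraries had 0 to 6 counts and were not tested.

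CDC42EP1, or Borg5, was at 0.242, 0.367 and 0.366 CPM in Nalm6_Ctrl and at 0.815, 0.911 and 0.529 CPM under prednisolone, or 24, 48 and 31 counts. The log2 fold change was 1.16 ± 0.29 (adjusted p = 0.00226, edgeR). Under dexamethasone it was 1.04, 0.615 and 0.712 CPM against 0.11, 0.4 and 0.317 (log2 fold change 1.56 ± 0.37). The knockout held 0.417, 0.306 and 0.0321 CPM untreated and 0.731, 0.726 and 0.837 CPM under prednisolone, with a log2 fold change of 1.56 ± 0.46, which ranged from 1.05 to 2.07 without single libraries. The treated libraries lay above the untreated ones in both cases, and neither difference has a test, since 2 of 3 and 1 of 3 untreated libraries reached the filter's level. The 2 lines overlapped under dexamethasone, where the knockout held 0.742, 0.435 and 0.478 CPM (log2 difference -0.51 ± 0.29, adjusted p = 0.144, edgeR). Of all reads at CDC42EP1 on either strand, 25.9% lay on the strand opposite to the one counted, against 4.92% or less at each of the other 5 genes. By group it was 42.6% in Nalm6_Ctrl and 27.5% in Nalm6_Pred, and 17.1% in Nalm6_Dex_Ctrl and 11.5% in Nalm6_Dex. The knockout had 47.7% untreated, 20.4% under prednisolone and 22.4% under dexamethasone. The part of that strand in these values was not tested.

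CDC42, the GTPase itself, moved little. It was at 302, 284 and 290 CPM in Nalm6_Ctrl and at 341, 339 and 348 CPM with prednisolone, higher by 0.20 ± 0.04 in log2 units (adjusted p = 2.58e-04, edgeR). Nalm6_Dex_Ctrl, at 348, 326 and 311 CPM, lay above Nalm6_Ctrl by a like amount (0.23 ± 0.05, adjusted p = 0.00141, edgeR), and against that control the prednisolone value was -0.05 (adjusted p = 0.408). Dexamethasone gave 346, 345 and 348 CPM, overlapping its control (log2 fold change 0.04 ± 0.05, adjusted p = 0.505, edgeR). In the knockout, dexamethasone libraries stood at 301, 304 and 309 CPM, below every dexamethasone library of Nalm6 (log2 difference -0.17 ± 0.03, adjusted p = 3.86e-05, edgeR). Prednisolone in the knockout gave 327, 309 and 308 CPM against 248, 261 and 302 (log2 fold change 0.18 ± 0.08, adjusted p = 0.114, edgeR). That difference was called without TLE1_KO_Ctrl replicate 3 (adjusted p = 0.00546).

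Under dexamethasone, CDC42EP3, CDC42EP4 and CDC42 were lower in the knockout than in Nalm6 and CDC42EP1 was not called, among the 4 genes that passed the filter through both lines. In that comparison 56.6% of all 16763 genes were called and 28.1% were called lower. Against the untreated difference, 2 genes passed through every group and can be tested. CDC42EP4 was called lower and CDC42 was not called, beside 30.3% called and 16.6% called lower of 18024 genes. CDC42EP1 passed there only through both dexamethasone groups, CDC42EP2 only through Nalm6_Dex and CDC42EP5 only through both Nalm6 groups. In the prednisolone response of the knockout, neither of the 2 genes that passed through both groups and can be tested, CDC42EP4 and CDC42, was called by edgeR or DESeq2, with 0 of them at an unadjusted p under 0.05, beside 41.7% called and 19.8% called higher of 16555. The differences of prednisolone responses, knockout minus Nalm6, are given without tests: -1.14 ± 0.44 for CDC42EP5, -0.41 ± 0.15 for CDC42EP4, -0.17 ± 0.50 for CDC42EP2, 0.0008 ± 0.10 for CDC42 and 0.43 ± 0.56 for CDC42EP1.

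**Figure D3:**
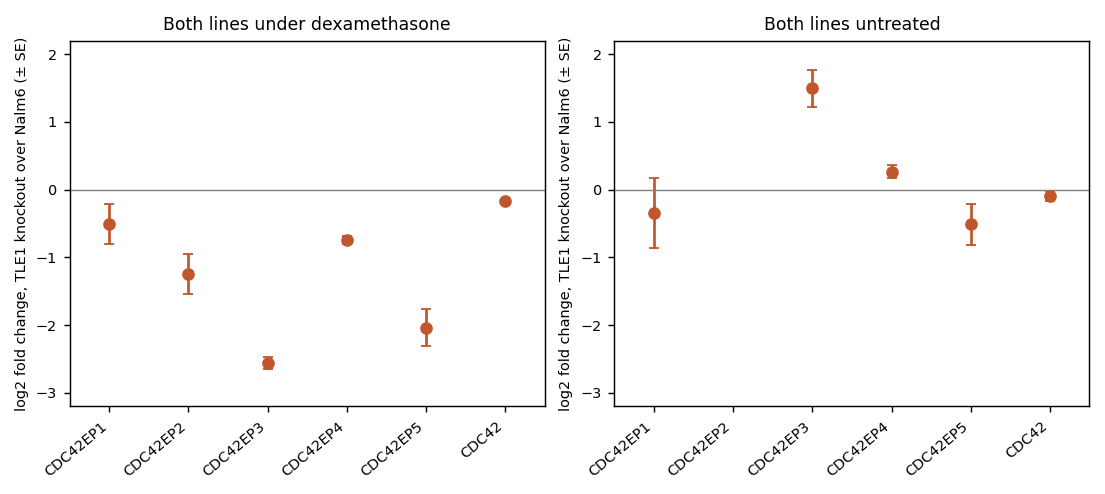
Log2 fold change of the TLE1 knockout over Nalm6 (vertical axes, ± SE, 3 libraries a group) for each gene under dexamethasone (left) and untreated, against Nalm6_Ctrl (right); CDC42EP2 was under the low-count filter untreated. Under dexamethasone CDC42EP3 is at -2.56 and CDC42EP5 at -2.04, and untreated CDC42EP3 is at 1.50.

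Without drug, 2 genes passed the filter through both the knockout and Nalm6_Ctrl and can be tested, CDC42 and CDC42EP4. Neither was called by edgeR or by DESeq2, beside 27.1% of 17208 genes, and CDC42EP4 had an unadjusted p under 0.05. Its log2 difference was 0.27 ± 0.10 (adjusted p = 0.0825, edgeR). It was called without TLE1_KO_Ctrl replicate 3 (0.35, adjusted p = 0.0139) and in a joint model of all 33 libraries (0.27, adjusted p = 0.0242), and turned to -0.13 against Nalm6_Dex_Ctrl (adjusted p = 0.399). CDC42 was called lower in the knockout against Nalm6_Dex_Ctrl (-0.31, adjusted p = 0.0146) and without TLE1_KO_Ctrl replicate 3 (-0.18, adjusted p = 0.00806). Between the 2 untreated Nalm6 groups themselves, 3 genes passed the filter through both groups and can be tested. Of these, CDC42EP4 and CDC42 were called, beside 50.2% of 17478 genes. In CEM, 1 of 3 genes that passed the filter was called under prednisolone (CDC42EP3, above), beside 45.1% of 17381 genes. CHIR-99021 in CEM called none of the 3 by edgeR or DESeq2, beside 10.8% of 17200 genes, with CDC42EP4 the 1 gene at an unadjusted p under 0.05. Between untreated CEM and Nalm6_Dex_Ctrl, CDC42EP3 was higher and CDC42EP4 lower, 2 of the 3 genes that passed the filter through both lines, beside 77.5% of 18018 genes. CDC42 did not differ beyond its spread in that comparison (log2 difference -0.02 ± 0.05, adjusted p = 0.772, edgeR), but it was 0.24 higher in CEM when Nalm6_Ctrl was the control (adjusted p = 4.54e-06).

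The wider CDC42 pathway was read from lists of 89 genes, of which 88 matched the files. Counts of pathway genes called include genes that passed the filter through some groups only. In Nalm6 under dexamethasone 51 of 71 tested genes were called, 31 higher and 20 lower, with a median log2 fold change of 0.10 beside 0.02 over all genes. Under prednisolone 53 of 73 were called, 30 higher and 23 lower, with a median of 0.05 beside 0.03. These shares, 71.8% and 72.6%, stand beside 60.5% and 54.8% over all genes. Between the lines under dexamethasone 59 of 71 were called, 26 higher and 33 lower in the knockout, with a median of -0.05. That share, 83.1%, stands beside 56.6% of all genes called and 28.1% called lower in that comparison.

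Among the exchange factors, which load CDC42 with GTP, 15 of 18 tested genes (83.3%, beside 60.5% of all genes) were called under dexamethasone in Nalm6, 11 of them higher. FGD2 rose most, from 3.52 ± 0.283 to 49.0 ± 2.42 CPM (SD, n = 3; log2 fold change 3.77 ± 0.07, adjusted p = 1.68e-14, edgeR). Prednisolone took FGD2 from 1.15 ± 0.0740 to 17.1 ± 0.191 CPM (log2 fold change 3.86 ± 0.09, adjusted p = 7.67e-16, edgeR), and the response was 2.18 against Nalm6_Dex_Ctrl. In the knockout its prednisolone response was 2.54 ± 0.13. The responses of FGD2 to prednisolone differed between the lines by -1.30 ± 0.16 (adjusted p = 1.51e-04, edgeR), a value that turned to 0.38 with Nalm6_Dex_Ctrl as the control (adjusted p = 0.0760), and FGD2 was itself 1.66 ± 0.12 higher in Nalm6_Dex_Ctrl than in Nalm6_Ctrl. ARHGEF7, the exchange factor beta-PIX that binds PAK kinases, rose under prednisolone from 191 ± 6.34 to 658 ± 39.6 CPM in Nalm6 (log2 fold change 1.76 ± 0.04) and from 232 ± 24.1 to 597 ± 10.4 CPM in the knockout (1.33 ± 0.08), each called by edgeR (adjusted p = 1.58e-15 and 5.65e-07).

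ARHGEF4, known as Asef, went the other way. It fell by 1.38 under prednisolone and by 1.60 under dexamethasone in Nalm6, from 7.12 ± 0.316 to 2.76 ± 0.197 CPM and from 7.77 ± 0.605 to 2.61 ± 0.122 CPM. In the dexamethasone-treated knockout it stood at 10.8 ± 0.850 CPM, 2.06 ± 0.10 log2 units above Nalm6 (adjusted p = 1.27e-13, edgeR). CHIR-99021 lowered ARHGEF4 in Nalm6 to 4.55 ± 0.220 CPM (log2 fold change -0.65 ± 0.08, adjusted p = 0.00120, edgeR). DNMBP, the CDC42 exchange factor Tuba, fell by 0.40 in the same libraries (adjusted p = 4.52e-04, edgeR). In all, 9 of 73 pathway genes were called under CHIR-99021 in Nalm6, 6 of them exchange factors, and all 9 were lower. That share is 12.3% beside 7.88% of all genes, and the count ranged from 2 to 14 without single libraries. Over all 18082 genes tested there, 571 were called higher and 854 lower.

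Among the other effectors of CDC42, 16 of 25 (64.0%, beside 60.5% of all genes) were called under dexamethasone in Nalm6, 11 higher and 5 lower. BAIAP2, the membrane-bending protein IRSp53, rose from 0.181 ± 0.0770 to 4.90 ± 0.463 CPM (log2 fold change 4.66 ± 0.21). Its untreated mean was under the filter's level, so this rise is given with no test, although BAIAP2 is among the 16. In the dexamethasone-treated knockout BAIAP2 was at 0.825 ± 0.181 CPM (line difference -2.54 ± 0.17, adjusted p = 3.20e-11, edgeR). The scaffold IQGAP2 responded less to prednisolone in the knockout than in Nalm6 (difference -0.69 ± 0.07, adjusted p = 1.50e-05, edgeR). Across all lists 7 of 72 genes (9.72%, beside 3.48% of all genes) were called in that difference of responses, 2 higher and 5 lower. The count ranged from 3 to 13 without single libraries and was 32 with Nalm6_Dex_Ctrl as the control. In untreated cells TRIP10, the CDC42-binding F-BAR protein CIP4, was higher in the knockout (20.0 ± 1.77 against 10.5 ± 0.731 CPM, log2 difference 0.96 ± 0.08), and so was the CDC42-like GTPase RHOQ, or TC10 (10.96 ± 0.611 against 5.49 ± 0.201 CPM, log2 difference 1.02 ± 0.08), with adjusted p = 5.36e-05 and 2.33e-05 by edgeR. Against Nalm6_Dex_Ctrl TRIP10 was higher by 0.58, and RHOQ, at 0.21, was no longer called (adjusted p = 0.0779).

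The proteins that switch CDC42 off gave 7 of 12 called under dexamethasone (58.3%, beside 60.5% of all genes), 5 higher and 2 lower. SRGAP3, a GTPase activator of the srGAP family, fell by 0.98 under prednisolone in Nalm6 and was 1.12 ± 0.07 log2 units higher in the knockout than in Nalm6 under dexamethasone (adjusted p = 3.86e-11, edgeR). Septins, the partners of the CDC42EP proteins, gave 7 of 10 tested called lower under dexamethasone in Nalm6 and 2 higher, with a median log2 fold change of -0.27, where 30.2% of all genes were called lower. Prednisolone gave 6 lower and 2 higher of 10, with a median of -0.42, where 26.1% of all genes were called lower. SEPTIN6 went from 291 ± 14.3 to 174 ± 4.64 CPM under dexamethasone (log2 fold change -0.78 ± 0.04, adjusted p = 7.53e-10, edgeR). Under dexamethasone 6 of the 10 septins were called higher in the knockout than in Nalm6 and 1 lower, with a median of 0.10. Over all 16763 genes tested there, 4780 were called higher.

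**Figure D4:**
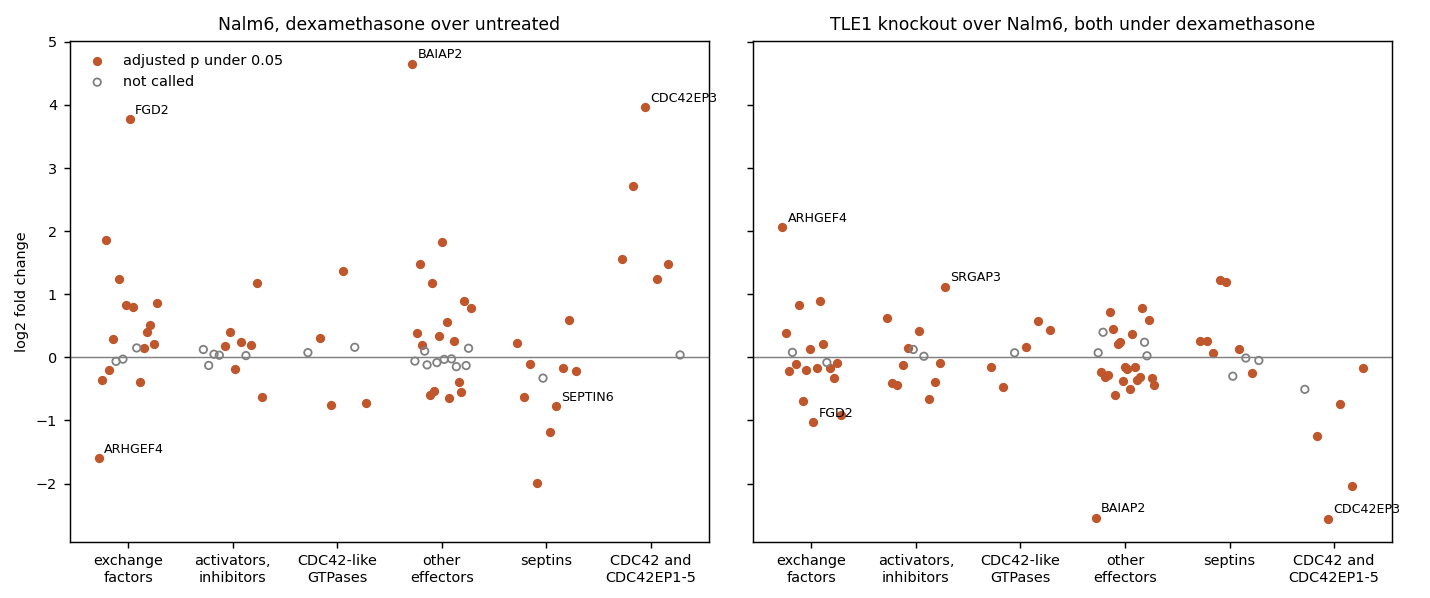
Log2 fold change (vertical axis) of every tested gene of the CDC42 pathway lists and of the 6 genes of the family (horizontal axis, by role) for dexamethasone in Nalm6 (left) and for the knockout over Nalm6 under dexamethasone (right); filled points passed an adjusted p of 0.05, and genes named by rule and CDC42EP3 are labelled. BAIAP2, CDC42EP3 and FGD2 lie highest on the left, at 4.66, 3.96 and 3.77. Filled points include CDC42EP1, CDC42EP2 and BAIAP2 on the left and CDC42EP2 and CDC42EP5 on the right, whose differences have no test in the text.

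In CEM 43 of 75 pathway genes were called under prednisolone, 29 higher and 14 lower, and 16 of 75 under CHIR-99021, 3 higher and 13 lower. These shares, 57.3% and 21.3%, stand beside 45.1% and 10.8% of all genes, and the CHIR-99021 count ranged from 7 to 15 without single libraries. Over all genes, 3873 were called higher and 3969 lower under prednisolone, and 931 higher and 934 lower under CHIR-99021. The GTPase activator ARHGAP31, or CdGAP, rose from 3.03 ± 0.0916 to 12.6 ± 0.454 CPM in CEM_Pred (log2 fold change 2.03 ± 0.08, adjusted p = 1.16e-12, edgeR). RHOU, a CDC42-like GTPase, fell by 1.31 under prednisolone and by 0.65 under CHIR-99021. Without drug the exchange factors PLEKHG1 (32.5 ± 1.44 CPM) and DOCK8 (178 ± 3.94 CPM) were high in CEM and at 0.0249 and 0.165 CPM in Nalm6_Dex_Ctrl. PARD6G had no count in untreated CEM against 4.20 ± 0.194 CPM in that Nalm6 group, and SEPTIN11 was at 1.34 ± 0.0848 against 137 ± 0.896 CPM.

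Genes were ranked by how alike their profile over the 11 groups was to that of CDC42EP3. The measure was Pearson's r of the group means of log2(CPM + 1), among 6070 genes of sufficient level and range. The 5 most alike were NOP14-AS1 (r = 0.981), NCK2 (0.974), ASPG (0.972), CPQ (0.967) and PRKD2 (0.966), and 9 genes reached 0.95. The groups share lines and experiments, so r describes likeness only. NCK2, an SH2/SH3 adaptor that links receptors to actin regulators, was at 16.2 CPM in Nalm6_Ctrl, 44.3 in Nalm6_Pred, 27.7 in TLE1_KO_Pred and 51.5 in CEM_Ctrl. ASPG, an asparaginase-like enzyme, went from 0.278 CPM in Nalm6_Ctrl to 3.07 in Nalm6_Pred and 5.19 in Nalm6_Dex, and was at 0.607 in TLE1_KO_Dex and 6.21 in CEM_Ctrl. CPQ, a carboxypeptidase, was at 11.9 CPM in Nalm6_Pred and 4.37 in TLE1_KO_Pred. PRKD2, or protein kinase D2, was at 68.2 CPM in Nalm6_Pred and 42.8 in TLE1_KO_Pred. NOP14-AS1, an antisense RNA, spanned a narrower range, from 7.02 CPM in Nalm6_CHIR to 19.9 in CEM_Pred. Over the 33 single libraries the first 4 of these stayed in the same places and PRKD2 came 6th.

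**Figure D5:**
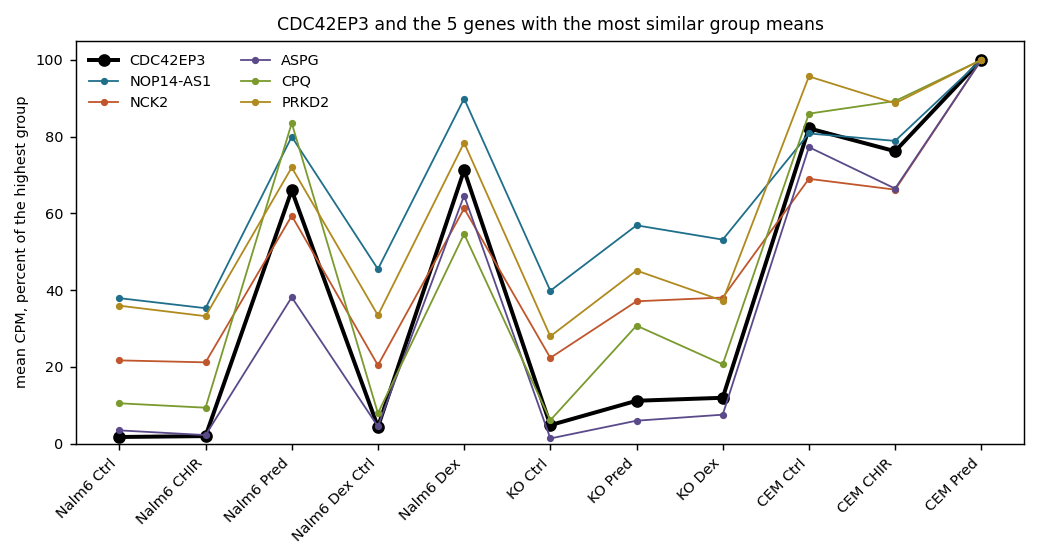
Mean level of CDC42EP3 (black) and of the 5 genes most alike to it in each group, as a percentage of the highest group of that gene (vertical axis, 3 libraries a group). The 6 lines are highest in CEM and in glucocorticoid-treated Nalm6 and lower in the knockout under the same drugs.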

How the data were processed

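Total RNA of 33 cell line samples was sequenced, 3 libraries in each of 11 groups taken from the sample titles. The authors deposited unnormalized gene counts, 1 file a library in STAR's output layout. Each has 62446 genes and 4 totals of unassigned reads (2.84% to 11.2% unmapped, 4.83% to 7.55% multiply mapped, 18.4% to 32.7% outside genes, 4.70% to 7.45% ambiguous), which stayed out of library sizes. Per the submitters' processing notes the build was hg19 and the tools included Bowtie2 and DESeq2; the aligner version and annotation are not given in the sources used here, and many gene identifiers carry a lift-over suffix. No gene coordinates are given from that build. Column 4 was used, the strand with 12.3 to 15.3 times the gene counts of column 3.

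The 6 genes, the pathway lists and the marker lists were chosen with earlier results of these data known. Levels are CPM of gene totals, and exon lengths are GENCODE v29 unions. Tests were edgeR 4.0.16 quasi-likelihood fits (R 4.3.3) on the libraries of each comparison, with filterByExpr, TMM scaling and Benjamini-Hochberg adjustment over all tested genes; a call is an adjusted p under 0.05. The dexamethasone difference of responses is the knockout difference under dexamethasone minus that between TLE1_KO_Ctrl and Nalm6_Ctrl. Pathway genes were named by rule: in each comparison the 2 called genes with the largest rise and the 2 with the largest fall above a mean log2 CPM of 1. Genes alike needed a mean of at least 2 CPM over all 33 libraries and a range of group means of at least 1 log2 unit. The fits were checked on simulated data. Alternatives were DESeq2 1.42.0, other filters, strands and scalings, leaving out each library, a replicate block, a joint model and other untreated groups. The 3 same-numbered pairs correlated above 0.1 between the 2 untreated Nalm6 groups (0.109 to 0.374), although the labels give no shared day. The tests given for these groups had no replicate block, with 8774 genes called, and the block called 9397. The pairs between TLE1_KO_Pred and Nalm6_Pred also correlated above 0.1 (0.118 to 0.178). Those groups enter 1 comparison, the difference of prednisolone responses, together with groups whose pairs did not all reach 0.1.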

Additional observations from a re-analysis of the deposited data

Results flagged for a closer look

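The dexamethasone response differed between the lines for CDC42EP4, by -1.02 log2 units. That is by edgeR's test of the difference itself, measured against the difference between TLE1_KO_Ctrl and Nalm6_Ctrl. CDC42EP5 differed by -1.54 log2 units in the same fit, but it passed the filter only through the 2 Nalm6 groups and has no test. With TLE1_KO_Ctrl and Nalm6_Dex_Ctrl as the untreated groups the values were -0.62 for CDC42EP4 and -1.19 for CDC42EP5. A difference between experiments is not removed from them. Without TLE1_KO_Ctrl replicate 2, CDC42EP5 was at -1.32. CDC42EP4 is listed because this test of the difference was passed, and CDC42EP5 stands beside it without a test.

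For reads on the strand opposite to the counted one, every treated library lay above every control library in CPM in the comparisons that follow. Each treated library had more than 3 counts. How many of all genes show such an order was not computed, so nothing is read from it. At CDC42EP1 the mean was 0.276 CPM in Nalm6_Pred and 0.236 CPM in Nalm6_Ctrl, at 8 to 16 and 10 to 15 counts a library. At CDC42EP3 in CEM it was 0.185 CPM under CHIR-99021 and 0.178 CPM under prednisolone against 0.0826 CPM untreated, at 7 to 9, 6 to 9 and 1 to 6 counts a library. These few counts stand outside the counted strand and were not tested.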

How the results depend on the processing

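Depth limits CDC42EP1, CDC42EP2 and CDC42EP5, whose libraries hold at most 64 counts each.

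Leaving out each library in turn moved the genes called to 409 to 2708 for CHIR-99021 in Nalm6 (1425 with all libraries), 2804 to 6732 for the untreated lines (4655), 361 to 1852 for the difference of prednisolone responses (624) and 1001 to 1948 for CHIR-99021 in CEM (1865). Genes of the family called ranged from 0 to 1 (CHIR-99021 in Nalm6), 0 to 2 (untreated lines), 1 to 3 (prednisolone in the knockout) and 1 to 3 (dexamethasone difference). These counts, and the values that follow, include genes that did not reach the filter's level in every library of each group. Among tested values, signs turned within these ranges, and no value of the turned sign was called: CDC42 from -0.0089 to 0.073 (dexamethasone in Nalm6), -0.15 to 0.0062 (dexamethasone difference), -0.0036 to 0.040 (prednisolone in CEM) and -0.072 to 0.037 (untreated CEM against Nalm6); CDC42EP1 from -0.86 to 0.17 (untreated lines), -0.68 to 0.35 (dexamethasone difference) and -0.60 to 0.21 (untreated Nalm6 groups). Values given without a test that turned were CDC42EP3 for CHIR-99021 in Nalm6 (-0.017 to 0.50) and, in the difference of prednisolone responses, CDC42EP1 (-0.090 to 0.94), CDC42EP2 (-0.41 to 0.19) and CDC42 (-0.069 to 0.092).

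With no filter on low counts 2320 genes were called for CHIR-99021 in Nalm6 and 981 for the difference of prednisolone responses. With at least 10 counts in every library the family's calls fell, because fewer of its genes were tested. They went from 5 to 3 (dexamethasone in Nalm6), from 5 to 3 (lines under dexamethasone), from 2 to 1 (dexamethasone difference) and from 2 to 0 (prednisolone in the knockout). Family counts in this section also count the genes that were given no test above for passing the filter through some groups only. A model of all 33 libraries called 1277 genes in the difference of prednisolone responses, 1 family gene between the untreated lines and 0 for prednisolone in CEM.

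With the other untreated Nalm6 group, the family's calls were 3 for prednisolone in Nalm6, 1 between the untreated lines and 5 between CEM and Nalm6, and 4345 genes were called in the difference of prednisolone responses. Values that changed sign were CDC42EP4 (-0.15) and CDC42 (-0.055) for prednisolone in Nalm6, CDC42EP4 (-0.13) and ARHGAP5 (0.046) between the untreated lines, FGD2 (0.38) in the difference of prednisolone responses and CDC42 (0.24) between CEM and Nalm6. CDC42 was at 0.13 in the dexamethasone difference with TLE1_KO_Ctrl and Nalm6_Dex_Ctrl as the untreated groups. The cause of these changes was not tested. Except in the CEM comparison, these swaps of untreated group were chosen after seeing the data.

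With the replicate block, 925 genes were called for CHIR-99021 in Nalm6, and the number of family genes called stayed the same in every comparison. In comparisons other than that of the 2 untreated Nalm6 groups, not every same-numbered pair of libraries correlated above 0.1, so the block there rests on a shared number.

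Over all alternatives, 817 values of single family genes were counted as unchanged. They kept direction and side of the threshold, or had no test and moved by less than a fixed multiple of their error. Untested values that turned sign within that margin, as for CDC42EP3 under CHIR-99021 in Nalm6, are among the 817. Of the rest, 7 moved, 16 changed sign, 9 gained and 10 lost a call. Gained and lost calls include genes that passed the filter through some groups only.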
